A study of Mus musculus with 6 samples.

Results

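Cholesterol and fatty acid synthesis are described here through 32 genes of the sterol regulatory element-binding protein (SREBP) pathway, chosen by symbol from a list of SREBP-driven lipid synthesis genes and all found among the 25220 genes of the deposited expression table. They comprise 21 sterol genes (5 regulators, 7 enzymes of the mevalonate arm, 8 enzymes from squalene to cholesterol and 1 sterol carrier) and 11 fatty acid genes (4 of precursor supply and chain synthesis, 3 elongases and 4 desaturases). Poly(A) RNA was sequenced from primary mouse myoblasts, muscle precursors grown from hindlimb muscle in a horse serum medium with basic fibroblast growth factor. Control cells (Ctrl, Pax7 +/+; Psat1fl/fl, n = 3 libraries) carried floxed alleles of Psat1 without Cre. Psat1 cKO cells (Pax7 CRE+/-;Psat1fl/fl, n = 3 libraries) had the same floxed alleles and Cre at 1 Pax7 allele, so that Cre and the targeting of Psat1 differ together between the groups. Psat1 is the aminotransferase of serine synthesis. Age and any induction of Cre are not given in the labels.

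In mammals SREBP transcription factors are made as membrane proteins of the endoplasmic reticulum. When sterols are scarce, the escort protein Scap carries them to the Golgi, where proteases release the active factor. When sterols are plentiful, the Insig proteins hold Scap back. SREBP-2, from Srebf2, mainly drives cholesterol synthesis and SREBP-1, from Srebf1, mainly fatty acid synthesis. Proliferating cells need both products for new membrane.

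Values are RPKM, read numbers scaled for transcript length and library size, so that levels can be compared between genes. The smallest steps between values gave an estimated depth between 19500000 reads, in Psat1 cKO 3, and 43200000 reads, in Ctrl 3. Psat1 itself stood at 91.8, 93.4 and 100.2 RPKM in Ctrl and 63.5, 74.7 and 71.8 RPKM in Psat1 cKO, lower in each Psat1 cKO library than in any control but not absent (log2 fold change -0.44, limma adjusted p = 0.0225). That call was lost in 6 of 16 alternatives, among them those without Ctrl 1 (0.0558), Ctrl 2 (0.0829), Ctrl 3 (0.0713) or Psat1 cKO 3 (adjusted p = 0.0548). Ctrl 1 and the libraries Psat1 cKO 1 and 2 had Xist, and the other 3 had Y-linked transcripts, which leaves the groups unequal in this split. Of the myoblast markers, Myod1 averaged 687 RPKM in Ctrl and 606 RPKM in Psat1 cKO, while Pax7 and Myf5 were called lower (log2 fold change -0.60 and -1.13), 2 of 6. Cre sits at 1 Pax7 allele in all Psat1 cKO libraries. For Pax7, that allele and a change in the cells cannot be told apart. Called higher were 3 of 5 tested stromal markers (Pdgfra, Cd34 and Smoc2, with Pi16 listed at 0 in 5 libraries) and 2 of 4 smooth muscle markers (Tagln and Mcam). Summed stromal markers stood at 9.16 to 10.8 RPKM in Ctrl and 23.2 to 34.6 RPKM in Psat1 cKO, summed smooth muscle markers at 173.5 to 319.5 and 276.5 to 361.8 RPKM, and 8 muscle differentiation genes at 3433 to 4004 and 2210 to 3367 RPKM with 0 called. The largest part of the stromal sum was Cd34, at 6.13 and 16.6 RPKM on average, while Ly6a, at 1.57 and 1.83 RPKM, was not called. Most of the smooth muscle sum was Acta2, which averaged 198.5 and 214 RPKM, overlapped between the groups and was not called. None of the tested endothelial (3), immune (2), adipocyte (1), Schwann cell (2) and proliferation (6) markers was called in limma. Of the fat cell markers Plin1 and Cidec were listed at 0 in all 6 libraries and Adipoq did not exceed 0.0481 RPKM, while Fabp4 was at 5.40 RPKM in Psat1 cKO 3 and at 0.416 to 1.26 RPKM in the other 5. The endothelial markers were also all highest in Psat1 cKO 3, with Emcn at 6.68 and Pecam1 at 1.52 RPKM there. In the other 5 libraries Emcn was at 1.05 to 2.15 RPKM and Pecam1 at 0.348 to 0.845 RPKM. Cdh5, another endothelial marker, was higher in every Psat1 cKO library, at 0.667 to 1.42 RPKM in Ctrl and 1.79 to 2.44 RPKM in Psat1 cKO. Its log2 fold change was 0.80 (limma adjusted p = 0.0845). The part of these shifts in the results below was not tested.

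Of the lipid synthesis transcripts only Nsdhl, an enzyme of the late sterol route, was called changed between the genotypes. It fell to 67.9% of the control mean, and none of the other 30 genes tested passed the threshold. Genes were tested where their RPKM averaged 0.5 or more, which left out Acacb alone, and the threshold was a Benjamini-Hochberg adjusted p under 0.05 over all 12251 genes tested with limma on log2 of RPKM + 0.5. Of 31 members tested, 0 rose and 1 fell, where 1.8% of all genes were called higher and 0.49% lower (2.29% in either direction). At an unadjusted p under 0.05 there were 3 members, Nsdhl, Insig1 and Sc5d, against 14.4% of all genes. The median log2 fold change was -0.03 over the 31 members and -0.01 over all genes tested, and the median size of the change, regardless of sign, was 0.06 and 0.07. The members' median was 0.02 without Ctrl 3, 0.01 with array weights and -0.06 without Psat1 cKO 2, so its sign rests on the libraries used. The members were expressed more highly than most genes, at a median of 24.7 RPKM in Ctrl against 9.50 RPKM over all genes tested.

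How far a change could go unseen was limited by the spread between libraries. For the 30 members other than Nsdhl, the 95% intervals of the fold change reached at most 1.34-fold in either direction, for Dhcr7. For 23 of them they lay within 1.2-fold. The interval held no change for 28 of the 30, and left it out for Insig1 and Sc5d. These intervals come from limma, one gene at a time.

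**Figure D1:**
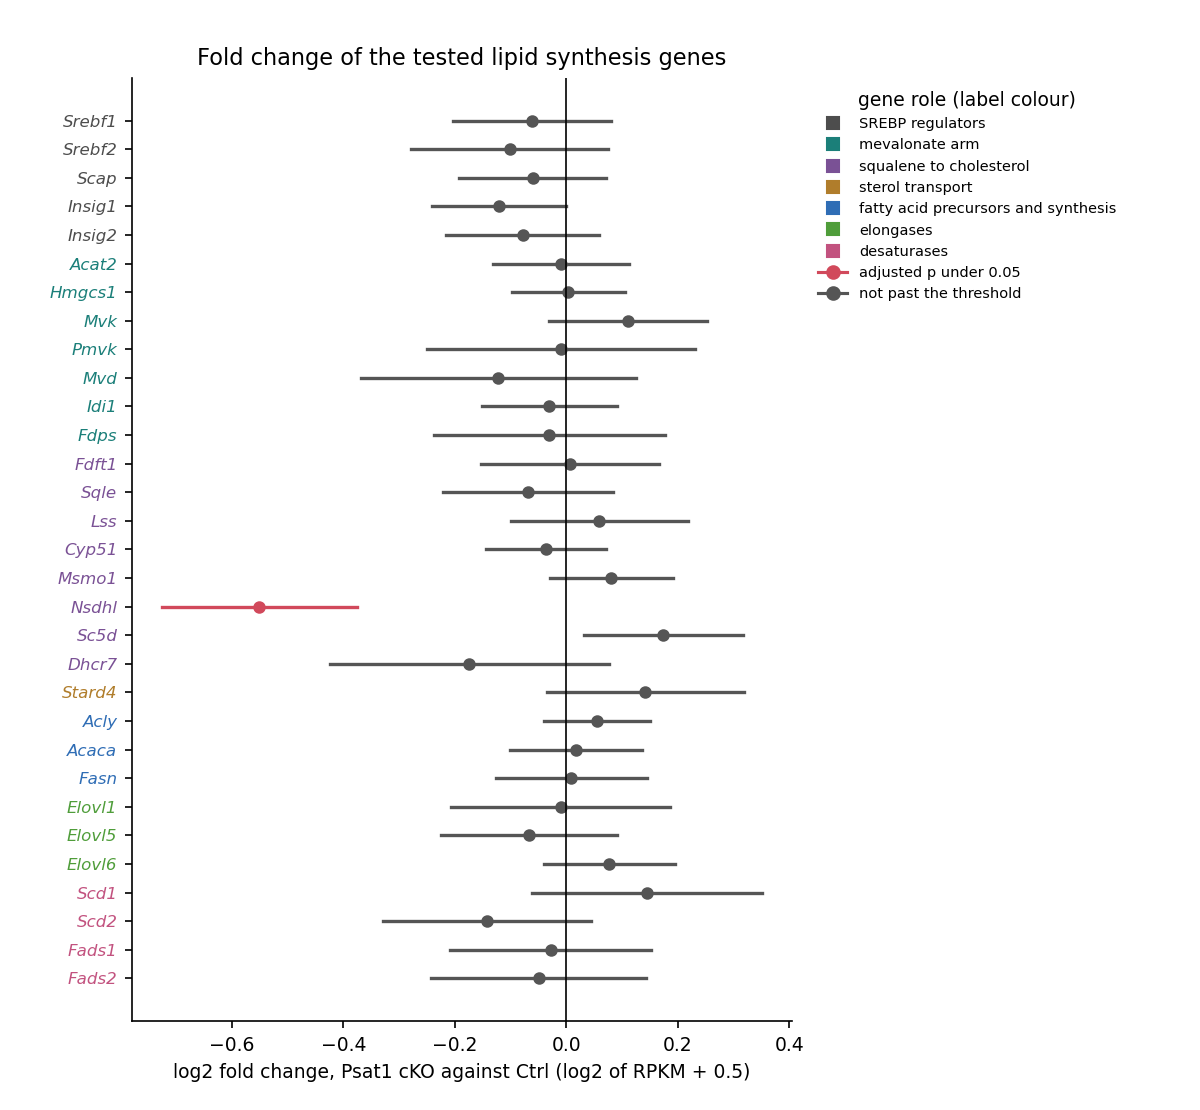
Log2 fold change of each tested member, Psat1 cKO against Ctrl (points, n = 3 libraries each), with its 95% interval (bars) on the log2 of RPKM + 0.5 scale, and label colours giving the role of the gene. Nsdhl, in red at -0.55, stands apart, while the points of the other 30 members lie between -0.17 and 0.17.

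Nsdhl encodes the sterol-4-alpha-carboxylate 3-dehydrogenase that removes a carboxyl group from carbon 4 of the sterol ring, late in cholesterol synthesis. It stood at 30.4, 31.8 and 33.9 RPKM in Ctrl and at 23.0, 22.7 and 19.5 RPKM in Psat1 cKO. Each Psat1 cKO library was below each control. The means were 32.0 ± 1.78 and 21.8 ± 1.96 RPKM (SD, n = 3 each). On the log2 scale the difference was -0.55 (standard error 0.08, 95% interval -0.73 to -0.38, limma adjusted p = 0.0138). The call was lost without Ctrl 2 (adjusted p = 0.0591) and when genes of any level were tested (adjusted p = 0.0998), and held in the other 14 of 16 alternatives. Over all 16 the log2 fold change ran from -0.59 to -0.48. In bulk RNA, fewer cells of a type and less RNA per cell cannot be told apart.

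Nsdhl lies on the X chromosome (GRCm38 chrX:72918521-72958528, Entrez 18194), and the groups held unequal numbers of libraries with Xist, so it was also read within each side of that split. Among the libraries with Xist it was 30.4 RPKM in the single control and 22.9 RPKM on average in the 2 Psat1 cKO libraries. Among those with Y-linked expression it averaged 32.9 RPKM in the 2 controls and was 19.5 RPKM in the single Psat1 cKO library. The log2 differences were -0.40 and -0.74, each with a single library in 1 group and so without a test. With the split as a term in the model over all 6 libraries, the log2 fold change was -0.57 (limma adjusted p = 0.0312).

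Immediately upstream of Nsdhl and pointing away from it lies Cetn2, which encodes the centriole protein centrin-2 (chrX:72913565-72918344). The annotated starts of the pair are parted by 176 bases, so that this short stretch is upstream of both. It is printed because both genes start beside it and 1 of them was called changed. It is given 5′ to 3′ on the Nsdhl strand, from RefSeq for GRCm38.p6 (chrX:72918345-72918520), and its capitals mark the CCAAT box, the motif of the factor NF-Y, searched as CCAAT on both strands and so read here as ATTGG.

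Cetn2 to Nsdhl: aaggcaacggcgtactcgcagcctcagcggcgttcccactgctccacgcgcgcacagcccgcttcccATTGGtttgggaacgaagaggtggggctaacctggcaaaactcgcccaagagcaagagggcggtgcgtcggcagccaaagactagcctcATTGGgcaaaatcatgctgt

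Cetn2 stood at 22.8, 22.1 and 20.4 RPKM in Ctrl and at 20.8, 21.6 and 24.3 RPKM in Psat1 cKO. The groups overlapped, and the log2 fold change was 0.03 (95% interval -0.14 to 0.19, limma adjusted p = 0.903). The ratio of Nsdhl to Cetn2 in RPKM was 1.33, 1.44 and 1.67 in the control libraries and 1.11, 1.06 and 0.804 in the Psat1 cKO libraries, without overlap. Cetn2 was looked up after the values of Nsdhl were seen.

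The enzymes that work with Nsdhl on carbon 4 were not called. Msmo1, the methyl sterol oxidase that acts just before it, stood at 49.8, 46.3 and 48.3 RPKM in Ctrl and at 49.6, 51.7 and 51.4 RPKM in Psat1 cKO, which overlapped (log2 fold change 0.08, 95% interval -0.03 to 0.19, limma adjusted p = 0.498). Hsd17b7, the keto reductase that follows and which is not a member, was at 9.11 ± 0.212 and 9.63 ± 0.687 RPKM (log2 fold change 0.07, adjusted p = 0.659). Relative to Msmo1, Nsdhl went from between 0.610 and 0.703 in the controls to between 0.379 and 0.464 in Psat1 cKO, as values without a test.

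**Figure D2:**
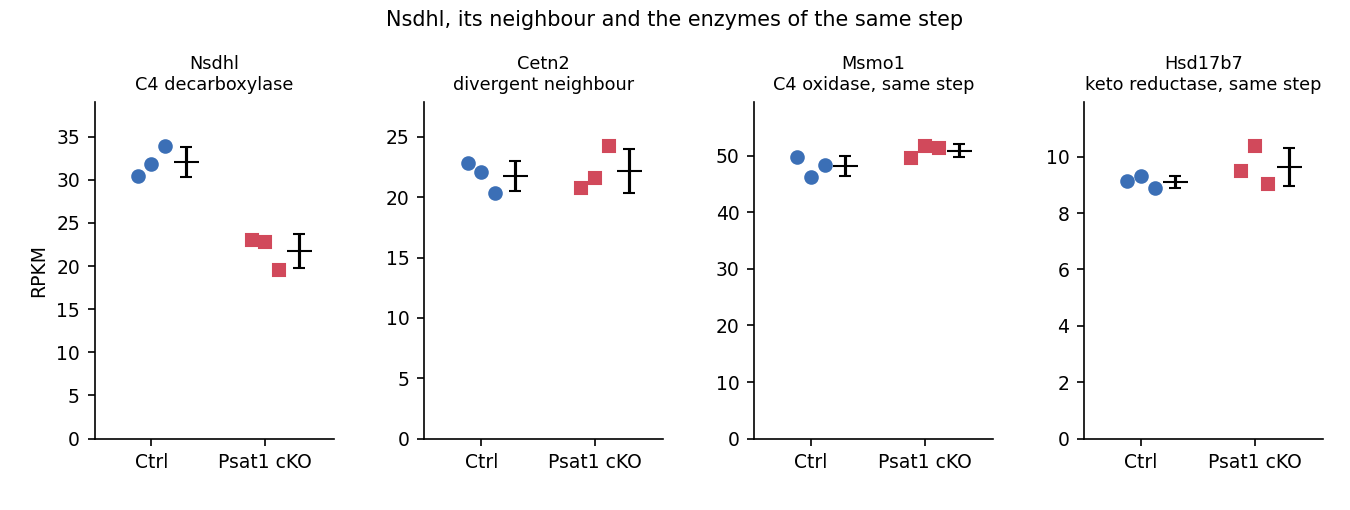
RPKM of Nsdhl, of Cetn2 and of the demethylation enzymes Msmo1 and Hsd17b7 in each Ctrl (circles) and Psat1 cKO (squares) library, with the mean and SD of each group (n = 3) in black and axes from 0. Nsdhl alone is parted by group, at 30.4 to 33.9 against 19.5 to 23.0 RPKM.

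Promoter sequence was not used to choose the members, but they come from a list of SREBP-driven genes. RefSeq promoters of 250 bases before to 50 after the start were at hand for 25 members and 27025 genes in all. The CCAAT box was found for 20 of the 25 members, or 80%, and for 41.1% of all genes. The sterol regulatory element was searched as TCACNCCAC on both strands and found in 1 member, Hmgcs1, and in 1.44% of all genes. The E-box CACGTG was found in 5 members (20%) and in 8.09% of all genes. These are matches of letters in a short window. The 27025 genes were neither limited to those tested here nor matched to the members in level. The 250 bases upstream of Hmgcs1 (chr13:119690101-119690350) and of Insig1 (chr5:28071162-28071411), both on the plus strand, are shown beside the Nsdhl stretch above as SREBP targets whose levels were not called changed. Capitals mark the CCAAT box in either direction and, in Hmgcs1, the sterol regulatory element.

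Hmgcs1: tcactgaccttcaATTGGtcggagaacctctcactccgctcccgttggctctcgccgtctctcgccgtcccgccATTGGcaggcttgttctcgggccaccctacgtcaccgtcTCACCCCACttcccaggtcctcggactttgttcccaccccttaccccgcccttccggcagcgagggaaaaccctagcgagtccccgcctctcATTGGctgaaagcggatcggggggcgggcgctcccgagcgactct

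Insig1: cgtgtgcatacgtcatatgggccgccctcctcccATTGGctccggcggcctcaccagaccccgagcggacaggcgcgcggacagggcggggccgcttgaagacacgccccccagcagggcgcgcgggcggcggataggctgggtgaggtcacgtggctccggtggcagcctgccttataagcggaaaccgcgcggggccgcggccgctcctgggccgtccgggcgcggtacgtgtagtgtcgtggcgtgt

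The CCAAT box occurred 3 times upstream of Hmgcs1, 1 time upstream of Insig1 and 2 times between Nsdhl and Cetn2. Among the 25 members with a promoter, the called gene and most of those not called carry it. Whether it bears on their levels was not tested.

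Among the regulators none of 5 passed the test in limma (1 at an unadjusted p under 0.05, Insig1). All 5 had a negative log2 fold change, between -0.12 and -0.06. Of all 12251 genes tested 6632 were negative. Srebf2 was the more abundant of the SREBP genes, at 55.6, 56.7 and 62.9 RPKM in Ctrl and 56.5, 57.8 and 49.2 RPKM in Psat1 cKO. Srebf1 stood at 15.0, 15.9 and 15.6 RPKM in Ctrl and 14.8, 15.9 and 13.9 RPKM in Psat1 cKO. Both were lowest in Psat1 cKO 3 and overlapped between the groups. The log2 fold change of Srebf2 was -0.10, and it ran from -0.03 without that library to -0.15 without Psat1 cKO 2. Without Psat1 cKO 3 those of the other regulators were -0.02 for Srebf1, -0.04 for Scap, -0.14 for Insig1 and -0.08 for Insig2. Scap, the escort of the SREBPs, was at 26.1 ± 1.10 and 25.0 ± 1.33 RPKM.

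Insig1, the sterol-sensing anchor that is itself a target of the SREBPs, stood at 48.7, 52.2 and 48.2 RPKM in Ctrl and at 45.8, 44.1 and 47.1 RPKM in Psat1 cKO. Every Psat1 cKO library lay below every control, by little. The log2 fold change was -0.12 (95% interval -0.24 to -0.00095), and it was not called (limma adjusted p = 0.343). Its partner Insig2 was at 10.8, 9.60 and 10.6 RPKM in Ctrl and at 9.80, 9.63 and 9.83 RPKM in Psat1 cKO, which overlapped.

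The mevalonate arm builds isoprenoid units from acetyl-CoA, and 0 of its 7 genes passed the test in limma, also at an unadjusted p under 0.05. Acat2, the cytosolic thiolase at its entry, was at 21.8 ± 1.03 RPKM in Ctrl and 21.6 ± 0.647 RPKM in Psat1 cKO. Hmgcs1, the synthase of the next step and a classical SREBP target, stood at 47.2, 46.5 and 47.2 RPKM in Ctrl and at 46.5, 48.6 and 46.1 RPKM in Psat1 cKO. Its log2 fold change was 0.00 with a 95% interval from -0.10 to 0.11. Mvk, the mevalonate kinase, had the highest log2 fold change of the arm at 0.11, with 8.93 to 10.1 RPKM in Ctrl and 10.1 to 10.6 RPKM in Psat1 cKO, which just overlapped (adjusted p = 0.467). It was 0.06 without Ctrl 2 and 0.15 without Ctrl 3.

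Of the remaining mevalonate genes, the kinase Pmvk had a log2 fold change of -0.01 and the isomerase Idi1 one of -0.03. The decarboxylase Mvd had the lowest, at -0.12 (adjusted p = 0.667). It stood at 16.5, 16.6 and 18.2 RPKM in Ctrl and 15.7, 18.3 and 13.4 RPKM in Psat1 cKO, and the log2 fold change was -0.01 without Psat1 cKO 3 and -0.23 without Psat1 cKO 2. Fdps, which makes farnesyl diphosphate, was the most abundant member, at 87.5, 84.2 and 105.8 RPKM in Ctrl and 88.5, 95.8 and 86.5 RPKM in Psat1 cKO.

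From squalene onward 1 of 8 genes fell, Nsdhl, and 0 rose. Fdft1, squalene synthase, was at 20.5 ± 1.67 and 20.5 ± 0.993 RPKM in Ctrl and Psat1 cKO. Sqle, the squalene epoxidase, was at 42.2 ± 2.19 and 40.3 ± 2.91 RPKM. Lss, which closes the ring to lanosterol, was the lowest of the tested members at 5.28 ± 0.386 and 5.52 ± 0.148 RPKM, and Cyp51, which removes the methyl group at carbon 14, was at 39.4 ± 0.484 and 38.4 ± 1.42 RPKM.

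At the end of the route Sc5d and Dhcr7 differed in sign, and neither was called. Sc5d, the lathosterol desaturase, stood at 13.4, 13.4 and 12.4 RPKM in Ctrl and at 15.0, 15.6 and 13.9 RPKM in Psat1 cKO. All Psat1 cKO libraries were above all controls, with a log2 fold change of 0.17 (95% interval 0.03 to 0.32, limma adjusted p = 0.246). Dhcr7, the reductase that finishes cholesterol, was at 8.03, 8.77 and 8.79 RPKM in Ctrl and 7.24, 8.96 and 6.50 RPKM in Psat1 cKO, a log2 fold change of -0.17 (adjusted p = 0.526) that was -0.08 without Psat1 cKO 3 and -0.29 without Psat1 cKO 2. Stard4, a carrier that moves cholesterol between membranes, was at 8.68, 8.38 and 7.82 RPKM in Ctrl and 9.58, 8.30 and 9.78 RPKM in Psat1 cKO, with overlap (log2 fold change 0.14 and adjusted p = 0.456).

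**Figure D3:**
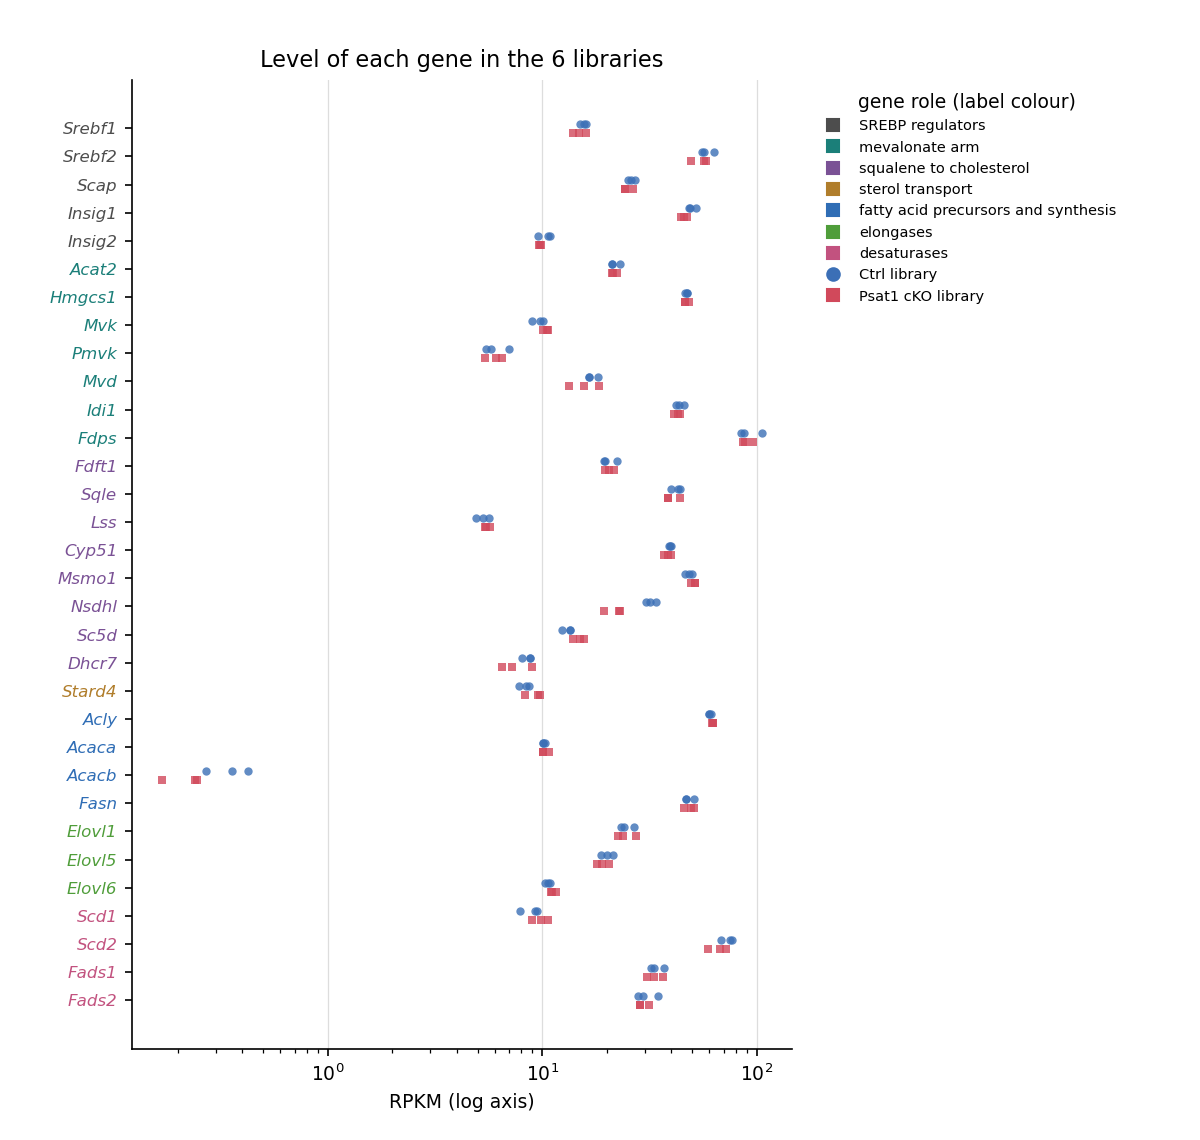
RPKM of all 32 members on a log axis in each Ctrl library (blue circles) and each Psat1 cKO library (red squares), with label colours for the role of the gene. Levels span from under 1 RPKM for Acacb to 105.8 RPKM for Fdps, and the groups overlap for all tested members but 5.

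No tested gene of fatty acid synthesis was called. Of 11 genes 10 were tested, of these 0 passed in limma, also at an unadjusted p under 0.05, and their median log2 fold change was 0.00. Acly, which splits citrate to supply acetyl-CoA to both branches, stood at 59.7, 59.8 and 60.9 RPKM in Ctrl and at 62.0, 62.7 and 62.8 RPKM in Psat1 cKO. The groups did not overlap, yet the difference was 0.06 on the log2 scale (adjusted p = 0.597 in limma). Fasn, the fatty acid synthase, stood at 46.9, 50.8 and 46.9 RPKM in Ctrl and at 49.3, 50.8 and 45.7 RPKM in Psat1 cKO, a log2 fold change of 0.01.

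The acetyl-CoA carboxylases make malonyl-CoA, Acaca for synthesis in the cytosol and Acacb at the mitochondrial surface, where malonyl-CoA restrains fatty acid oxidation. Acaca was at 10.2 ± 0.127 and 10.3 ± 0.372 RPKM. Acacb was far lower and below the level required for the test, at 0.423, 0.358 and 0.270 RPKM in Ctrl and 0.247, 0.240 and 0.169 RPKM in Psat1 cKO. All its Psat1 cKO libraries were under all controls. When genes of any level were tested, its log2 fold change was -0.24 on the log2 of RPKM + 0.5 scale, which understates the change of so low a gene (Acacb, limma adjusted p = 0.363). Its 95% interval, from -0.45 to -0.03, left out no change.

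The elongases lengthen fatty acids and the desaturases put in double bonds, and 0 of the 7 passed the test. Elovl6, which takes palmitate to stearate, stood at 10.3, 10.7 and 10.8 RPKM in Ctrl and at 10.95, 11.1 and 11.6 RPKM in Psat1 cKO, without overlap (log2 fold change 0.08 and limma adjusted p = 0.547). Elovl5, for polyunsaturated chains, was at 20.1 ± 1.31 and 19.2 ± 1.26 RPKM, and Elovl1, for very long saturated chains, at 24.7 ± 1.89 and 24.5 ± 2.54 RPKM. The front-end desaturases of polyunsaturated fatty acids, which lie near each other on chromosome 19, had log2 fold changes of -0.03 for Fads1 and -0.05 for Fads2.

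The stearoyl-CoA desaturases, which make monounsaturated fat, differed in sign, and neither was called. Scd1 stood at 7.84, 9.21 and 9.44 RPKM in Ctrl and at 8.95, 10.6 and 9.87 RPKM in Psat1 cKO, a log2 fold change of 0.15 (limma adjusted p = 0.518) that ran from 0.07 without Ctrl 1 to 0.21 without Psat1 cKO 1. Scd2, the main form here, stood at 68.1, 74.8 and 76.7 RPKM in Ctrl and at 67.7, 72.2 and 59.4 RPKM in Psat1 cKO, where the log2 fold change was -0.14 (limma adjusted p = 0.482) and ran from -0.06 without Psat1 cKO 3 to -0.20 without Psat1 cKO 2. Both genes overlapped between the groups. They are close paralogs, and how shared reads were counted is not given in the sources used here, so their split is uncertain.

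Ratios within a library depend little on how libraries are scaled, and 5 were compared with a two-sided exact permutation test. With 3 libraries against 3 its smallest possible p is 0.1. The ratio of Scd1 to Scd2 was 0.122, 0.129 and 0.129 in Ctrl and 0.139, 0.153 and 0.173 in Psat1 cKO, higher in every Psat1 cKO library by 0.29 on average on the log2 scale (exact p = 0.1, adjusted over the 5 ratios p = 0.25). The ratio of Acaca to Acacb was 11.5 to 13.8 in Ctrl and 14.2 to 15.8 in Psat1 cKO, again without overlap (exact p = 0.1, adjusted p = 0.25), and its size depends on the pseudocount: the log2 difference was 0.26 with 0.5 and 0.51 with a pseudocount of 0.1. The ratios of Srebf1 to Srebf2, Insig1 to Insig2 and Fads1 to Fads2 overlapped between the groups, with log2 differences of 0.04, -0.04 and 0.02 (exact permutation p of 0.6, 1 and 0.5).

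**Figure D4:**
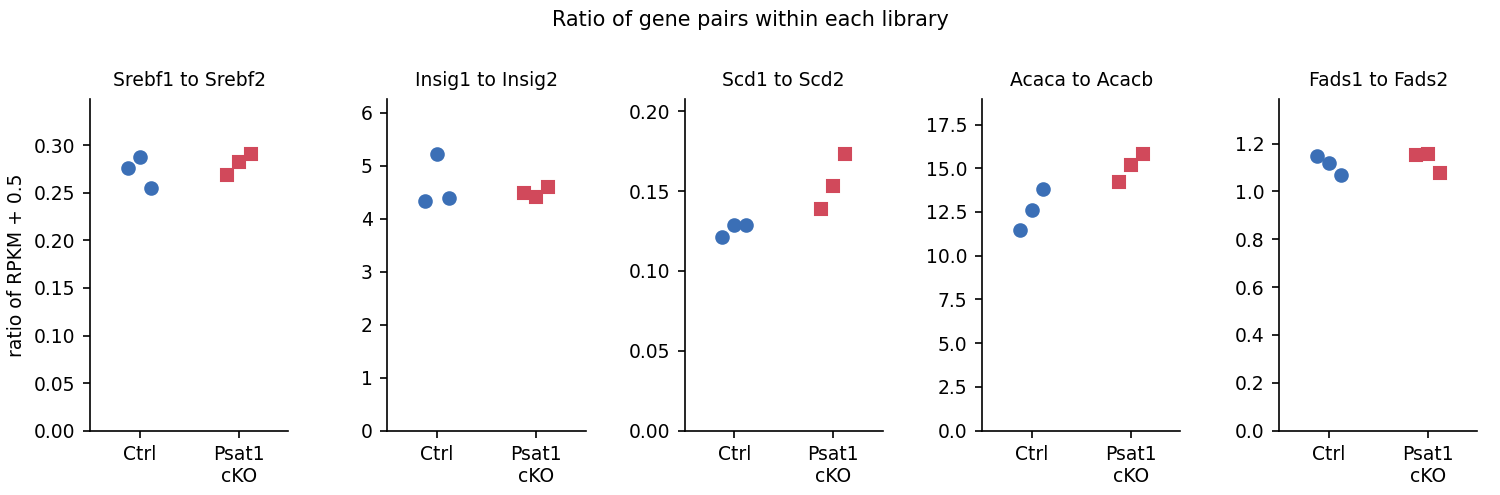
Ratio of RPKM + 0.5 for 5 pairs of members within each Ctrl (circles) and Psat1 cKO (squares) library, with axes from 0. The groups part for Scd1 to Scd2 (0.122 to 0.129 against 0.139 to 0.173) and for Acaca to Acacb, and overlap for the other 3 pairs.

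The highest and lowest values of the members gathered in a few libraries. Ctrl 3 held the highest of the 6 values for 14 of the 31 tested members, or 45.2%, where it held the highest for 22% of all genes tested. Psat1 cKO 2 held it for 10 members (32.3%, against 14% of all genes). Psat1 cKO 3, the shallowest library, held the lowest value for 15 members (48.4%, against 31% of all genes). The sterol members had a median deviation from the mean of the 6 libraries of 0.08 in Ctrl 3, 0.06 in Psat1 cKO 2 and -0.06 in Psat1 cKO 3 on the log2 scale, and the fatty acid members of 0.07, 0.07 and -0.06, where the medians of all genes lay between -0.01 and 0.01. Most of the highest values thus came from 1 library of each group, and those of the other 7 members from Ctrl 1, Ctrl 2 or Psat1 cKO 3. Ctrl 3 was the deepest library and Psat1 cKO 3 the shallowest. Psat1 cKO 2, the next shallowest at an estimated 28900000 reads, had the medians of 0.06 and 0.07 given above. Ctrl 2, the next deepest at 39500000 reads, had medians of -0.02 for the sterol and for the fatty acid members. The part of depth was not tested.

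**Figure D5:**
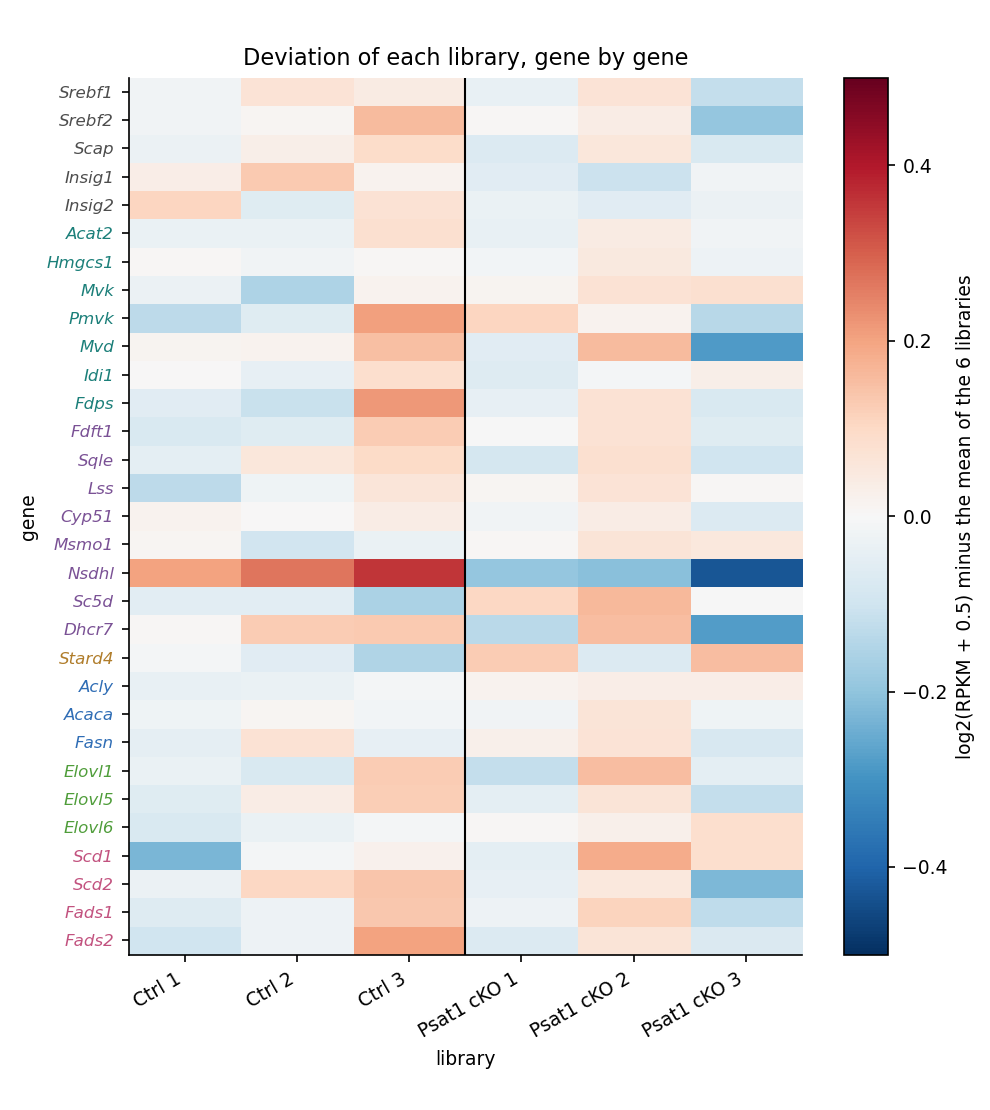
Deviation of log2(RPKM + 0.5) from the mean of the 6 libraries for each tested member (rows, in the order of the pathway) and library (columns), with Ctrl left and Psat1 cKO right of the line. Ctrl 3 and Psat1 cKO 2 are mostly red and Psat1 cKO 3 mostly blue, while Nsdhl is red in all 3 Ctrl and blue in all 3 Psat1 cKO libraries.

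The groups did not overlap for 5 of the 31 tested members, namely Nsdhl and Insig1 (lower) and Sc5d, Acly and Elovl6 (higher). Of all genes tested the groups did not overlap for 20.5%, lower for 10.5% and higher for 10%.

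Further genes of the pathway, in 4 lists, held 1 call: of 40 tested in limma, 1 rose and 0 fell. Of all genes tested 2.29% were called in either direction. At an unadjusted p under 0.05 there were 7 of the 40, against 14.4% of all genes. The median log2 fold change of the 40 was -0.03. The one that rose was Me1, the cytosolic malic enzyme that makes NADPH, the reductant of lipid synthesis, from 21.1 ± 0.689 to 27.0 ± 0.237 RPKM (log2 fold change 0.35, limma adjusted p = 0.0138). Among 18 further fatty acid genes tested, Hacd1, a dehydratase of chain elongation, stood at 81.6 ± 0.814 and 73.3 ± 2.04 RPKM (adjusted p = 0.153). Gpam, the acyltransferase that starts glycerolipid synthesis, stood at 7.61 ± 0.627 and 6.08 ± 0.617 RPKM (adjusted p = 0.162), and neither was called.

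Of 6 further sterol synthesis genes tested 0 were called. Lbr, a sterol reductase of the nuclear envelope, was at 19.5 ± 0.475 and 17.5 ± 0.254 RPKM (log2 fold change -0.15, adjusted p = 0.179), and for the isomerase Ebp the log2 fold change was -0.18 (adjusted p = 0.439). Of 7 genes for SREBP processing and for the degradation of sterol enzymes 0 were called, with the proteases Mbtps1 and Mbtps2 at -0.05 and -0.06 and the ubiquitin ligase Rnf145 at 0.12 (adjusted p = 0.338). Of 9 tested genes of sterol handling and targets of the sterol-activated LXR receptors 0 were called, and 8 of the 9 log2 fold changes were negative, as were 6632 of the 12251 over all genes tested. Vldlr, a lipoprotein receptor, was at 2.48 ± 0.129 and 1.93 ± 0.239 RPKM (log2 fold change -0.30, adjusted p = 0.185), the oxysterol-binding protein gene Osbp at -0.16 (adjusted p = 0.338) and the cholesterol ester hydrolase Nceh1 at -0.08 (adjusted p = 0.611). The LXR targets Abca1 and Abcg1, transporters that export sterols, were at no more than 0.138 and 0.0356 RPKM in any library and were not tested.

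In the authors' deposited table of their own comparison, 0 of the 32 members had a q under 0.05. The authors' deposited table gave Nsdhl the lowest q of the members, 0.0572, with a ratio of 0.678 between Psat1 cKO and Ctrl. It listed Insig1 at q = 0.371, Sc5d at q = 0.241 and Acacb at q = 0.378 with a ratio of 0.627. No member was among the symbols of the authors' deposited tables of enriched terms, 155 for higher and 28 for lower genes.

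Some levels may include reads of other genes. Exons of Srebf1 overlap those of Rai1, those of Elovl1 overlap Cdc20, those of Fdft1 overlap Ctsb and those of Cyp51 overlap Akap9, each on the opposite strand in GENCODE M21 and these partners at 9.36 RPKM or more on average. Other overlapping genes with a value were at 0.219 RPKM or less. Whether strand was used in counting is not given in the sources used here, so these reads cannot be told apart. No gene of that annotation overlaps Nsdhl.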

How the data were processed

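Per the labels' protocols, poly(A) RNA was made into libraries with NEBNext Ultra II reagents. Tools named in the submitters' processing notes are TopHat2 2.1.1, Trim Galore 0.6.6 and Partek, with build mm10. The sources used here give neither the annotation nor the counting. RPKM values per gene and library, as deposited, were used throughout. A second table deposited by the authors holds group means of log2 of RPKM + 0.001, a linear ratio, a signed fold change (treated as a score) and p- and q-values, per the file headers. The authors also deposited log10 p and log10 q of enriched terms, of which only the gene symbols were used.

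limma 3.58.1 in R 4.3.3 was run with genotype as the term and a trended prior variance, on log2 of RPKM + 0.5, for the 12251 genes whose RPKM averaged 0.5 or more. The script was tested on simulated data. Ratios were tested with an exact permutation test (scipy 1.17.1). Depth was estimated from 2413 single-exon genes of GENCODE M21, as the lowest depth at which the share of whole values, up to 20 reads, came close to its maximum. At that depth between 34.6% and 41.6% of values were within 0.02 of a whole read, against a median of 2.81% to 3.1% at other depths, so no count test was run. At those depths 3 reads in 1 kb were worth 0.0694 to 0.154 RPKM, which covers counting error only.

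Samples were grouped by their titles. Whether replicates are separate animals or cultures is not in the labels, and p-values therefore measure only the spread between these samples, which may be technical in part. Each group held libraries on both sides of the Xist and Y-linked split, so its libraries do not all share 1 animal source. The members and the lists were chosen with earlier results of these data known. Named genes were all members, Psat1, and of each other list those called or the 3 with the smallest p, of which 1 is not reported here. For marker lists the called genes and summed levels are given. Cetn2, Hsd17b7, Myod1, Abca1, Abcg1, Fabp4, Emcn, Pecam1, Cdh5, Ly6a and Acta2 and the markers at or near 0 were named after their values were seen. Positions and promoters are from RefSeq for GRCm38.p6, the assembly that mm10 names. As alternatives the pseudocount was 0.1 or 1, the filter was dropped or raised to 2 RPKM, and the fit was repeated with trimmed mean (TMM) scaling, quantile normalization, a replicate block, no variance trend, array weights, the Xist and Y-linked split as a term, and each library left out.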

Additional observations from a re-analysis of the deposited data

How the results depend on the processing

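In each of the 16 alternatives 0 members were higher and no member other than Nsdhl was called. Nsdhl was called in 14 of them, and the number of members called lower was 0 without the filter and ranged from 0 (without Ctrl 2) to 1 when a library was left out. The medians of the sterol and fatty acid members moved by less than the spread between libraries, but the sign of the small sterol median turned without Ctrl 3 (0.00413) and that of the fatty acid median, close to 0, in several alternatives. Over all genes, 220 higher and 60 lower became 1 and 3 without the filter, where more genes were tested. Leaving out a library gave 54 to 173 higher and 12 to 55 lower: 54 higher and 12 lower without Ctrl 2, 130 higher and 38 lower without Ctrl 3, 72 higher and 22 lower without Psat1 cKO 2, 111 higher and 36 lower without Psat1 cKO 3, and 29 lower without Ctrl 1. With the replicate number as a block 121 genes were lower. Same-numbered libraries correlated at 0.20, -0.03 and 0.17 in their deviations from the group means. Ctrl 1 and Ctrl 3 correlated best with their own number, and Ctrl 2 did not. The libraries numbered 1, and those numbered 3, also shared a side of the Xist and Y-linked split, while those numbered 2 did not. Whether the numbers pair samples cannot be told from this, and the main fit did not use them. Nsdhl kept its call with the block (adjusted p = 0.0367 in limma).

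Sign changes occurred in 11 members close to 0, none of them called. With array weights the log2 fold change was 0.0117 for Acat2, 0.0743 for Pmvk, 0.0284 for Fdps and for Elovl1, 0.0319 for Fads1 and 0.00653 for Fads2. With TMM scaling it was 0.000781 for Acat2. With the Xist and Y-linked split as a term it was -0.00497 for Hmgcs1 and -0.00252 for Fasn. When a library was left out the range was -0.0323 to 0.029 for Acat2, -0.0185 to 0.0182 for Hmgcs1, -0.0775 to 0.0906 for Pmvk, -0.0593 to 0.00413 for Idi1, -0.094 to 0.0699 for Fdps, -0.0296 to 0.0711 for Fdft1, -0.0102 to 0.034 for Acaca, -0.0228 to 0.0524 for Fasn, -0.0902 to 0.0501 for Elovl1, -0.0902 to 0.0318 for Fads1 and -0.111 to 0.0379 for Fads2. The log2 differences of the ratios ranged from -0.00812 to 0.0787 for Srebf1 to Srebf2, from -0.0899 to 0.0435 for Insig1 to Insig2 and from -0.00603 to 0.0548 for Fads1 to Fads2. The cause was not tested. For Psat1 the call was also lost without the filter (adjusted p = 0.117 in limma) and with the split as a term (0.0532).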
